A study of Mus musculus with 9 samples.

Results

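The Dlx homeobox genes Dlx1, Dlx2, Dlx5 and Dlx6 and the long non-coding RNA gene Dlx6os1 were followed in the cortex of mouse embryos that carry an altered HAR1984. They were chosen by gene name, and all 5 were found once in each comparison table, among 39184 genes listed in both. HAR1984 is a human accelerated region, DNA that vertebrates share and that gathered many changes in the human line, and the title of the series calls it an enhancer. RNA was sequenced from embryonic cortices of 3 genotypes with 3 libraries each, which the design text calls biological replicates. In deletion embryos both alleles had lost the element, Mm-HAR1984 (del/del), through a CRISPR knock-out. Knock-in embryos had a human and a mouse allele, Mm-HAR1984 (Hs/Mm), made by CRISPR, so they still carried a mouse copy. In control embryos both alleles were murine, Mm-HAR1984 (Mm/Mm). The tissue label is E16.5 for 8 libraries and E16.6 for deletion replicate 3, and a single batch is named for all 9. Neither founder lines, sex nor pooling of embryos is given in the sources used here. The labels name the cell type as neural progenitors, while genes of postmitotic projection neurons were abundant, with a mean normalised count (baseMean) of 35817 for Neurod6 and 15372 for Tbr1. The progenitor genes Sox2 and Pax6 had a baseMean of 4937 and 3518.

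DLX proteins are homeodomain transcription factors that specify GABAergic neurons of the ventral forebrain. In mice the genes lie in convergently transcribed pairs, Dlx1 with Dlx2 and Dlx5 with Dlx6, which share enhancers between their members. Dlx1 and Dlx2 act early in progenitors of the ganglionic eminences, and Dlx5 and Dlx6 act largely downstream of them as cells differentiate and migrate. In the embryonic cortex their transcripts come mostly from interneurons that have migrated in from the eminences. Dlx6os1, also called Evf2, is transcribed across the Dlx5-Dlx6 intergenic enhancers and takes part in the control of both genes.

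Several deposited values of these genes contradict each other, which bears on every result below. The authors' deposited table gives each gene a log2 fold change, its standard error (SE) and a Wald statistic, which should be their ratio. Every log2 fold change below is the statistic times the SE of the full table, and every p is the 2-sided normal p of that statistic, with Benjamini-Hochberg adjustment over 18952 genes in deletion and 21222 in knock-in cortex, unless the authors' deposited table is named. The threshold was an adjusted p of 0.05. Columns headed FPKM carry the names of libraries, but each of their 235530 and 242196 values in the 2 full tables equalled baseMean times successive draws of a normal generator with mean 1, SD 0.1 and seed 42. They are no measurement of a library, so values and spread per library, and the depth of each library, are unknown here. The Y-linked gene Eif2s3y was at -27.20 (SE 3.91, adjusted p = 3.58e-08) in the knock-in and -1.26 (SE 3.73, adjusted p = 0.983) in the deletion cortex. The part of embryo sex in the knock-in values of the Dlx genes was not tested.

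RefSeq start windows on GRCm38.p6, the assembly called mm10, were at hand for 3 of the 5 genes, and are shown because these genes moved together in the deletion. The submitters' processing notes name both mm10 and mm9, and the deposited tables carry no coordinates. Each window runs from 250 bases before a start to 50 after it, 5′ to 3′ on the strand of the gene. Capitals mark TAATTA, the core that homeodomain proteins including DLX bind, TAATTG or its reverse CAATTA, and CAGCTG, an E-box. Both TAATTA and CAGCTG read the same on both strands, and no match overlaps another here. The windows lie at chr2:71529195-71529494 (plus strand) for Dlx1, chr2:71546705-71547004 (minus strand) for Dlx2, and chr6:6869484-6869783 and chr6:6861634-6861933 (minus strand) for an upstream and a downstream start of Dlx6os1.
Dlx1: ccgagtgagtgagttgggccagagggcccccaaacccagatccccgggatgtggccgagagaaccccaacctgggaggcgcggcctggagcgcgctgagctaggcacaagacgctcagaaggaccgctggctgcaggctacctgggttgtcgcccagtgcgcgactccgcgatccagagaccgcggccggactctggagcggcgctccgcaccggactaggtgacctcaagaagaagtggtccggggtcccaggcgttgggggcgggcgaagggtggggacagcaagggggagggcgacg
Dlx2: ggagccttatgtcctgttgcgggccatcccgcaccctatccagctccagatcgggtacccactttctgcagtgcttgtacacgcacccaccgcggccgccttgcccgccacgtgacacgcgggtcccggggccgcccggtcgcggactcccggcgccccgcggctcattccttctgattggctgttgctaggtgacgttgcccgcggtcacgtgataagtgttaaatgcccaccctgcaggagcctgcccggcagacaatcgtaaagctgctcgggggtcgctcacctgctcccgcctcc
Dlx6os1, upstream start: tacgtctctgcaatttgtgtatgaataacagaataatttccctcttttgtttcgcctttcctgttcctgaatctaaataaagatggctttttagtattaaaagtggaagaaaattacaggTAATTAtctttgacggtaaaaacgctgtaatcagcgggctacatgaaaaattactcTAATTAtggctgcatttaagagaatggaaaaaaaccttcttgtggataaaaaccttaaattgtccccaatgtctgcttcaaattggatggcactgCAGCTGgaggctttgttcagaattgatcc
Dlx6os1, downstream start: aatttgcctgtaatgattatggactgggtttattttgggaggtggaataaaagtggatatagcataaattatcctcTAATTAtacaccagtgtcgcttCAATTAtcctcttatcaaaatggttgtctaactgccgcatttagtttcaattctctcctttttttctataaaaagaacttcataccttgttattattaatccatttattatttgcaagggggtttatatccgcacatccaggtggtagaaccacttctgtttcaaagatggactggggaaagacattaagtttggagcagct

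The windows of the pair on chromosome 2 and those of Dlx6os1 on chromosome 6 had little in common. The Dlx1 and Dlx2 windows had 69.3% and 66.3% G and C, with 27 and 29 CG dinucleotides, and held none of the 3 motifs. The Dlx6os1 windows had 35.7% and 35.3% G and C, and 4.28% and 3.96% of the 32841 windows of the table had less, their median being 52.7%. TAATTA was found 2 times in the upstream window, at -130 and -74 from the start, and 1 time in the downstream one, at -174. It occurs in 5.29% of all windows, TAATTG in 8.0% and CAGCTG in 16.3%. These shares are over windows of every G and C content. No share was computed for windows as low in G and C as those of Dlx6os1, so the rarity of these matches is not known. TAATTG was found 1 time in the downstream window, in reverse as CAATTA, and CAGCTG 1 time in the upstream window. A match describes letters and shows no binding.

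The 5 genes covered a wide range of levels. Per kilobase of annotated exon, the baseMean was 860 for Dlx2, 563 for Dlx1, 477 for Dlx6os1, 388 for Dlx5 and 104 for Dlx6. Dlx2 lay above 82.7% of the genes tested in the deletion on this scale, and Dlx6 above 32.3%. No spread between libraries is known for these levels, so no test of their order was made. Dlx3 and Dlx4, family members of skin, placenta and branchial arches, had a baseMean of 5.19 and 0.76 and were given no adjusted p. Dlx6os2, a second antisense gene of the Dlx6 locus, had a baseMean of 5.90 and no adjusted p either.

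Dlx6 (ENSMUSG00000029754) is annotated on chromosome 6 at 6863334 to 6868568 (plus strand) and Dlx5 (ENSMUSG00000029755) at 6877805 to 6882085 (minus strand). Dlx6os1 (ENSMUSG00000090063), at 6820189 to 6871592 (minus strand), runs antisense through Dlx6, yet their annotated exons share 0 bases. Dlx1 (ENSMUSG00000041911) is on chromosome 2 at 71528113 to 71533981 (plus strand) and Dlx2 (ENSMUSG00000023391) at 71543408 to 71546754 (minus strand). The starts of Dlx1 and Dlx2 are 18.6 kb apart, and those of Dlx5 and Dlx6 18.8 kb. Dlx1as, an antisense RNA gene of the Dlx1 locus, shares 335 exon bases with Dlx1, which is 6.21% of the exon bases of Dlx1 and 20.6% of its own. The sources used here do not say whether reads were counted by strand, so reads from Dlx1 and Dlx1as cannot be told apart over these bases. The annotation is GENCODE of mm10.

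The first question was how the Dlx genes stand when HAR1984 is absent. All 5 fell in deletion cortex, by a median of 0.95 on the log2 scale, while the median of all genes tested was -0.01. The share of all genes called lower was 0.475%, and 0.976% in either direction, while 51.7% had a value below control. All 5 also had an unadjusted p under 0.05, as did 4.31% of all genes in this direction and 9.5% in either. Dlx6os1 fell to 51.7% of control (-0.95, SE 0.20, 95% interval -1.35 to -0.56, adjusted p = 0.00122), rank 38 by p among 18952 genes. Beside it, Dlx5, a regulator of interneuron differentiation, fell to 48.0% of control (-1.06, SE 0.25, interval -1.55 to -0.56, adjusted p = 0.00759). Dlx6, its partner, fell to 25.3% of control (-1.98, SE 0.55, interval -3.06 to -0.90, adjusted p = 0.0404), the steepest fall of the 5 and the least exact. On chromosome 2, Dlx2, a regulator of subpallial progenitors, fell to 58.7% of control (-0.77, SE 0.18, interval -1.13 to -0.41, adjusted p = 0.00759). Dlx1, its partner, fell to 59.5% of control (-0.75, SE 0.20, interval -1.14 to -0.36, adjusted p = 0.0269). The interval of every gene overlapped that of every other, and differences between the genes were not tested. Dlx1as, by contrast, was at 94.7% of control (-0.08, SE 0.17, interval -0.41 to 0.25, adjusted p = 0.968). In bulk tissue, fewer cells of a type and less RNA per cell cannot be told apart, and the mix of tissue in each library is unknown.

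The calls of Dlx1 and Dlx6 were the weakest of the 5. With adjustment over every gene that has a p, Dlx1 had an adjusted p of 0.0549 and Dlx6 one of 0.0821, and after division of all statistics by their scale over all genes these were 0.0802 and 0.11. Dlx2, Dlx5 and Dlx6os1 stayed past the threshold under all 11 alternatives tried, but some of these could not have removed a call. A threshold of 0.1 is looser, and the deposited log2 fold change with the recomputed adjusted p leaves that p as it was. The largest adjusted p over the alternatives was 0.0290 for Dlx2 and Dlx5 and 0.00656 for Dlx6os1. In the authors' deposited table the p-values of the 5 genes in the deletion match their statistics, and by the adjusted p of that table all 5 are called, with 1.03% of all genes. The log2 fold changes of Dlx2 and Dlx5 in the authors' deposited table are -1.77 and -1.58. That of Dlx2 in the authors' deposited table is lower than the product of statistic and SE by 1, and that of Dlx5 by 0.52. The authors' shorter list of significant genes takes log2 fold changes beyond 1.3 in size and holds Dlx2, Dlx5 and Dlx6, whereas by statistic and SE only 1 of the 5 genes, Dlx6, passes that size.

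**Figure D1:**
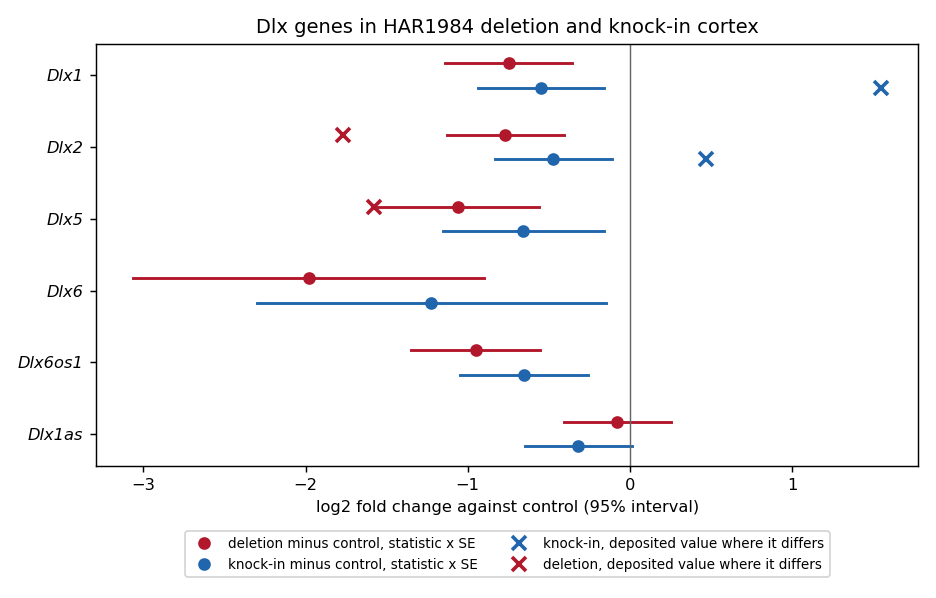
Log2 fold change of each Dlx gene (x axis) in deletion (red) and knock-in (blue) cortex against control, as statistic times SE with its 95% interval, and as a cross the log2 fold change in the authors' deposited table where it differs. The red intervals of the 5 genes lie below 0, that of Dlx1as spans 0, and the blue crosses of Dlx1 (1.55) and Dlx2 (0.47) lie on the other side of 0 from their points.

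The second question was what a human allele of HAR1984 does to the same genes. In knock-in cortex all 5 had values below control, with a median log2 fold change of -0.65, and 0 passed the threshold. Over all genes tested the median was 0.004, and 49% had a value below control. The share of all genes called was 0.137% in either direction, 0.0471% lower and 0.0895% higher. All 5 had an unadjusted p under 0.05 with a value below control, as did 3.39% of all genes tested (6.92% in either direction). Dlx6os1 was at 63.6% of control (-0.65, SE 0.20, interval -1.05 to -0.26, unadjusted p = 0.00122, adjusted p = 0.237). Dlx5 was at 63.4% (-0.66, SE 0.25, interval -1.15 to -0.16, adjusted p = 0.459) and Dlx6 at 42.8% (-1.23, SE 0.55, interval -2.30 to -0.15, adjusted p = 0.614). Dlx1 was at 68.4% (-0.55, SE 0.20, interval -0.94 to -0.16, adjusted p = 0.398) and Dlx2 at 72.1% (-0.47, SE 0.18, interval -0.83 to -0.11, adjusted p = 0.472). These intervals are unadjusted. Dlx1as was at 80.2% (-0.32, SE 0.17, interval -0.65 to 0.01, adjusted p = 0.737).

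The knock-in values depend on which deposited column is read. For all 5 genes the raw p in the authors' deposited table is the normal p of the same row's statistic divided by 1000, as it is for 923 genes in all. The adjusted p in the authors' deposited table is accordingly between 2.25e-04 (Dlx6os1) and 5.95e-04 (Dlx6), so by that column all 5 pass, together with 4.38% of all genes tested. The log2 fold change of Dlx1 in the authors' deposited table is 1.55, which is the size of its product of statistic and SE plus 1 with the sign changed. That of Dlx2 in the authors' deposited table is 0.47, the same size with the sign changed. Dlx5, Dlx6 and Dlx6os1 have a log2 fold change in the authors' deposited table that equals statistic times SE.

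Dlx1 also appears under another name. The authors' shorter list for the knock-in has a row with the gene ID, the baseMean (3039) and the log2 fold change (1.55) of Dlx1, but the gene name Emx2 and a statistic of 2.75 where the full table has -2.75. In the full tables Emx2, a homeobox gene of cortical progenitors, has its own ID (ENSMUSG00000043969), a baseMean of 2771 and a log2 fold change of 0.20 (SE 0.15, adjusted p = 0.833) in the knock-in. Of the 65 genes of that list, 3 have another name than in the full table and 10 another statistic. A direction for Dlx1 and Dlx2 in the knock-in therefore rests on the full-table statistic alone, and the tables cannot tell which of the contradictory values came from the fit.

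**Figure D2:**
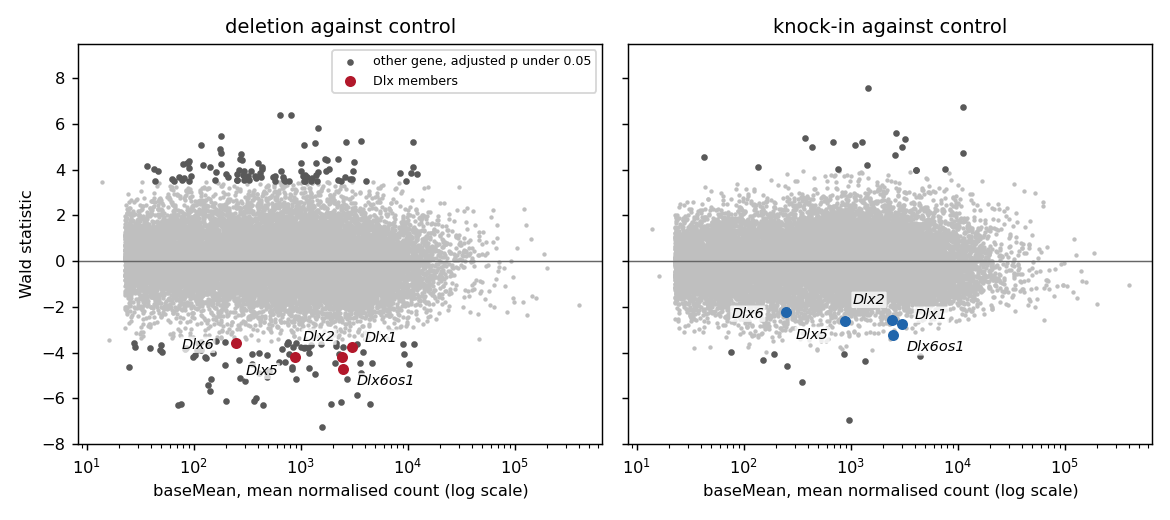
Wald statistic (y axis) against baseMean (x axis, log scale) for genes tested in both tables, deletion left and knock-in right; dark grey marks other genes with an adjusted p under 0.05. The Dlx genes (coloured) lie among the called genes in the deletion, between -3.59 and -4.71, and inside the grey cloud in the knock-in, between -2.23 and -3.23.

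The deletion and the knock-in share the 3 control libraries, so their values are set side by side with a test of the difference only. In the table of 18928 genes tested in both, 1 gene passed in this test (0.00528%), and 0 of the 5. At an unadjusted p under 0.05 there were 378 genes (2%) and again 0 of the 5, whose p ran from 0.253 to 0.477. The deletion value was below the knock-in value for all 5, as for 52.2% of all genes. The differences, deletion minus knock-in, ran from -0.20 for Dlx1 (interval -0.75 to 0.35) to -0.76 for Dlx6 (interval -2.28 to 0.77), each with an adjusted p of 0.9998. Between them were Dlx2 at -0.30 (interval -0.80 to 0.21), Dlx6os1 at -0.30 (interval -0.86 to 0.26) and Dlx5 at -0.40 (interval -1.10 to 0.30). This SE ignores the shared controls. A covariance for them was assumed, not estimated, as if the 3 groups varied alike. With it the SE of Dlx5 came to 0.25 in place of 0.36, and the adjusted p of the 5 genes ran from 0.578 to 0.766. All 5 intervals hold 0.

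If baseMean is the mean of all 9 libraries, as the notes in the authors' deposited table say, it fixes group levels together with both fold changes, though with no error. On that reading Dlx6 had 112 normalised counts in deletion and 188 in knock-in cortex, against 440.1 in the control. Dlx6os1 had 1777 in deletion and 2186 in knock-in cortex, against 3438 in the control. These levels are arithmetic on the fold changes, not a further measurement. They are given for Dlx6 and Dlx6os1 only, because at least 1 log2 fold change of Dlx1, Dlx2 and Dlx5 in the authors' deposited table goes against its statistic and SE.

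Of the 12 named protein-coding genes whose starts lie within 500 kb of a Dlx start, 0 were called in either comparison, where 0.976% and 0.137% of all genes were, so 0 of 12 says little. At an unadjusted p under 0.05 there were 4 in deletion and 1 in knock-in cortex, where 9.5% and 6.92% of all genes were. In the deletion they ran from -0.30 (Hat1, a histone acetyltransferase) to 0.30 (Pdk1, a kinase of pyruvate metabolism, SE 0.10, adjusted p = 0.121). In the knock-in they ran from -0.28 (Rapgef4) to 0.34 (Sem1, a proteasome subunit, SE 0.11, adjusted p = 0.266). Metap1d, a methionine aminopeptidase gene that ends 2.92 kb before Dlx1, had -0.20 (SE 0.09, adjusted p = 0.340) in the deletion and -0.16 (SE 0.09) in the knock-in. Sdhaf3, whose start is 73.9 kb from that of Dlx5, had 0.02 (SE 0.12) in the deletion and 0.05 (SE 0.12) in the knock-in. The SEs of the neighbours in the deletion ran from 0.09 to 0.23, and those of the 5 Dlx genes from 0.18 to 0.55.

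**Figure D3:**
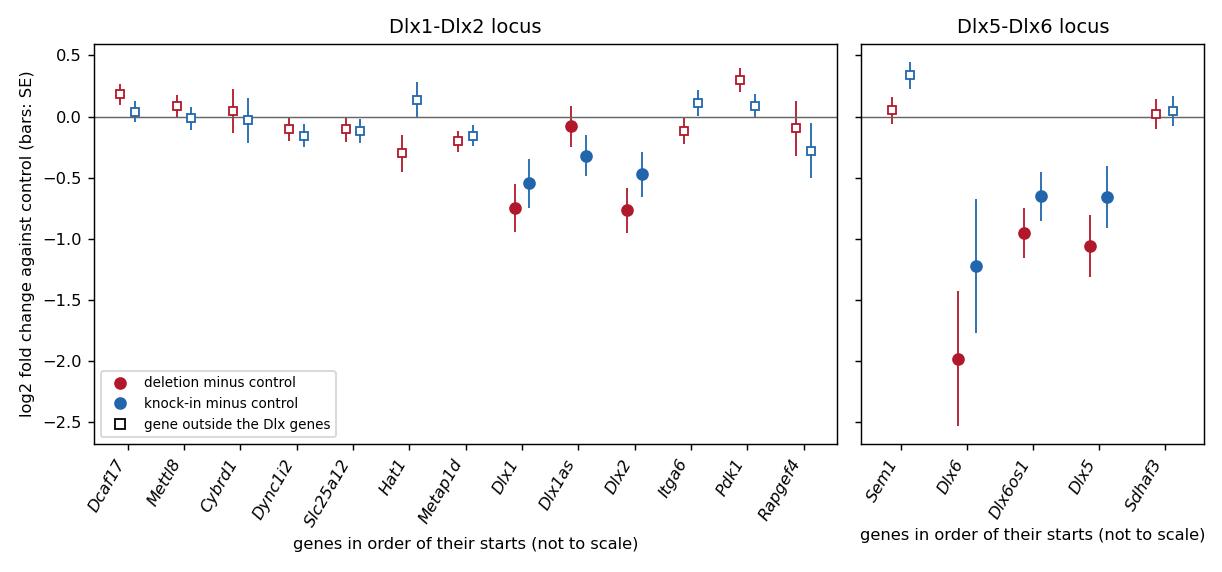
Log2 fold change against control (y axis, bars are SE) of the Dlx genes (filled circles) and of protein-coding genes with a start within 500 kb (open squares), in order along each chromosome, deletion red and knock-in blue. The neighbours lie between -0.30 and 0.34, and the 5 Dlx genes between -0.47 and -1.98.

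Some regulators that act upstream of Dlx genes fell in the deletion. Of the 14 genes listed, 5 were called lower, as were 0.475% of all genes, and 0 were called higher. Called or not, 13 had values below control and 1 above it, with a median of -0.66. At an unadjusted p under 0.05 there were 9, all of them below control, as were 4.31% of all genes. Pbx3 (-1.07, SE 0.15, adjusted p = 7.10e-09), Meis1 (-0.93, SE 0.15, adjusted p = 9.79e-07) and Meis2 (-0.38, SE 0.11, adjusted p = 0.0380) are TALE homeodomain factors of the subpallium. Gsx2, which patterns the lateral eminence, fell by 1.51 (SE 0.42, adjusted p = 0.0432). The abundant Sox2 and Smo had -0.30 (SE 0.14) and 0.03 (SE 0.15). In the knock-in 0 of the 14 were called, where 0.137% of all genes were. There 4 had an unadjusted p under 0.05, all below control, as did 3.39% of all genes in this direction. The median was -0.29, with Pbx3 at -0.57 (SE 0.15, adjusted p = 0.0623) and Gsx2 at -0.30 (SE 0.41). The authors' deposited table has -1.74 for Pbx3 and -1.93 for Meis1 in the deletion, and -1.57 for Pbx3 in the knock-in.

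Of 22 tested genes downstream of, or expressed with, the Dlx factors, 2 were called lower in the deletion and 0 higher. Called or not, 15 had values below control and 7 above it, with a median of -0.21. Over all genes 0.475% were called lower and 0.501% higher. At an unadjusted p under 0.05 there were 10 below control and 1 above it, Maf, an interneuron factor, at 0.31 (SE 0.15). At that p, 4.31% of all genes were below control and 9.5% differed in either direction. Sp8, a zinc finger factor of the lateral and caudal eminences, fell by 0.81 (SE 0.17, adjusted p = 0.00114), while the authors' deposited table has -1.81. Zfhx3, a homeobox gene of differentiating striatal neurons, fell by 1.22 (SE 0.25, adjusted p = 7.63e-04). The genes of GABA synthesis and vesicular loading had values below control that did not pass: Gad1 -0.60 (SE 0.24, adjusted p = 0.314), Gad2 -0.69 (SE 0.22, adjusted p = 0.112) and Slc32a1 -0.63 (SE 0.23, adjusted p = 0.195). The most abundant genes listed, Zeb2, Nrp2 and Pak3, had 0.21, -0.19 and -0.18. In the knock-in 0 of 22 were called and 5 had an unadjusted p under 0.05, all below control. Over all genes these shares were 0.137% and, for values below control, 3.39%. The median was -0.25, and Gad1, Gad2 and Slc32a1 had -0.67, -0.67 and -0.52. The full table gives Gad1 a statistic of -2.76, while the authors' shorter list holds its ID under the name Npas3 with 2.76. For Gad1 and Gad2 the log2 fold changes in the authors' deposited table are 1.67 and -1.67.

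Among markers of the interneuron lineages 1 gene, Sp8, was called in the deletion. Of 10 genes of the medial eminence lineage 0 were called and the median was -0.03. The 2 with an unadjusted p under 0.05 were the factors Nkx2-1 at -4.04 (SE 1.34, adjusted p = 0.126) and Lhx8 at -6.40 (SE 2.12, adjusted p = 0.126), which mark the medial eminence itself and were the lowest of the list. Lhx6, a factor of these interneurons, had -0.09 (SE 0.24), the neuropeptide gene Sst -0.10 (SE 0.49), and the abundant Satb1 and Cux2 0.02 (SE 0.11) and 0.28 (SE 0.18). Among 9 tested genes of the caudal eminence lineage Sp8 fell, as above, and the median was 0.03, with Nr2f2 at 0.03 (SE 0.26), Nr2f1 at 0.10 (SE 0.19) and Reln at 0.09 (SE 0.15). In the knock-in the medians of the medial and caudal lists were -0.27 and -0.19, with 0 genes called, also by the adjusted p of the authors' deposited table, and 0 with an unadjusted p under 0.05. Whether the Dlx fall differs from that of these genes was not tested. Of 6 genes for proteins reported in mice to work with Dlx6os1 RNA, among them Smarca4, Dnmt1 and Top1, 0 were called and 1 had an unadjusted p under 0.05 in each comparison, with medians of -0.04 in deletion and -0.02 in knock-in cortex. In the deletion Smarca4 had 0.01 (SE 0.08), Dnmt1 -0.04 (SE 0.06) and Top1 -0.14 (SE 0.09).

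Markers of other cell types moved alongside the Dlx genes. Of 16 genes of the striatum and lateral eminence 3 were called lower in the deletion, as were 0.475% of all genes, and the median was -0.97. At an unadjusted p under 0.05 there were 10, all below control, as were 4.31% of all genes. The 3 called genes were Tac1, which encodes the precursor of substance P (-3.10, SE 0.80, adjusted p = 0.0203), with Gsx2 and Meis2 as above. The abundant Foxp1 and Ppp1r1b had -0.04 (SE 0.20) and 0.25 (SE 0.16). Isl1 had -3.06 (SE 1.36, adjusted p = 0.397) and Six3 -1.82 (SE 0.78, adjusted p = 0.366), and 2 of the 16 genes had values above control. Whether libraries held unlike amounts of striatal or eminence tissue was not tested. In the knock-in 0 were called and the median was -0.44. There 7 had an unadjusted p under 0.05, all below control, as did 3.39% of all genes. Meningeal genes were above control in the deletion for 9 of 9, with 5 called higher, where 0.501% of all genes were, 8 at an unadjusted p under 0.05 and a median of 1.01. The called genes were Aldh1a2 (1.13, SE 0.22), Slc6a13 (1.05, SE 0.28), Col1a2 (1.01, SE 0.26), Foxc1 (0.82, SE 0.23) and Fn1 (0.75, SE 0.20), beside Col1a1 at 1.07 (SE 0.36). Endothelial and pericyte genes were above control for 8 of 8, each at an unadjusted p under 0.05, with Flt1 (0.65, SE 0.15) and Vtn (0.86, SE 0.25) called and a median of 0.50, and Rgs5 and Kdr at 0.35 (SE 0.11) and 0.40 (SE 0.19). With statistics divided by their scale, Aldh1a2 and Flt1 stayed called, while the adjusted p was 0.0661 for Col1a2, 0.0724 for Fn1, 0.0895 for Slc6a13, 0.123 for Foxc1 and 0.123 for Vtn. On that scale the striatal calls were lost too, with 0.0644 for Tac1, 0.105 for Meis2 and 0.116 for Gsx2. In the knock-in the medians of the meningeal and vascular lists were 0.42 and 0.29, with 0 called and 3 and 1 genes at an unadjusted p under 0.05. Pallial progenitor and projection neuron genes had medians of -0.12 in deletion and 0.17 in knock-in cortex over 13 genes, with 0 called in each and 3 and 2 genes at an unadjusted p under 0.05. Neurod6, Neurod2 and Tbr1 had 0.14, 0.29 and -0.08 in the deletion. By the adjusted p of the authors' deposited table, 4 striatal, 1 meningeal, 0 vascular and 2 pallial genes were called in the knock-in, with 4.38% of all genes. In the remaining lists 0 genes were called in either comparison, while the adjusted p of the authors' deposited table calls 1 diencephalic gene in the deletion and 4 red cell genes in the knock-in. Here the counts at an unadjusted p under 0.05 and the medians are given for the deletion and then for the knock-in. Of 5 tested genes of skull and branchial arch mesenchyme, where Dlx genes are also expressed, these were 1 and 0, with medians of 0.38 and 0.37, and Twist1 and Msx1 had 0.68 (SE 0.29) and 0.33 (SE 0.50) in the deletion. Of 6 microglial genes they were 3 and 0, with medians of 0.46 and 0.30, and Csf1r had 0.49 (SE 0.22) in the deletion. Of 6 red cell genes they were 2 and 4, with medians of -0.23 and 0.29, and Hba-a1 had -0.42 (SE 0.12) in the deletion. Of 5 tested diencephalic genes they were 2 and 0, with medians of -0.27 and 0.01, and in the deletion Gbx2 had -4.43 (SE 1.29, adjusted p = 0.0564) and Lhx9 -0.45 (SE 0.21). Levels of these lists per library are unknown, and their part in the Dlx values was not tested.

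**Figure D4:**
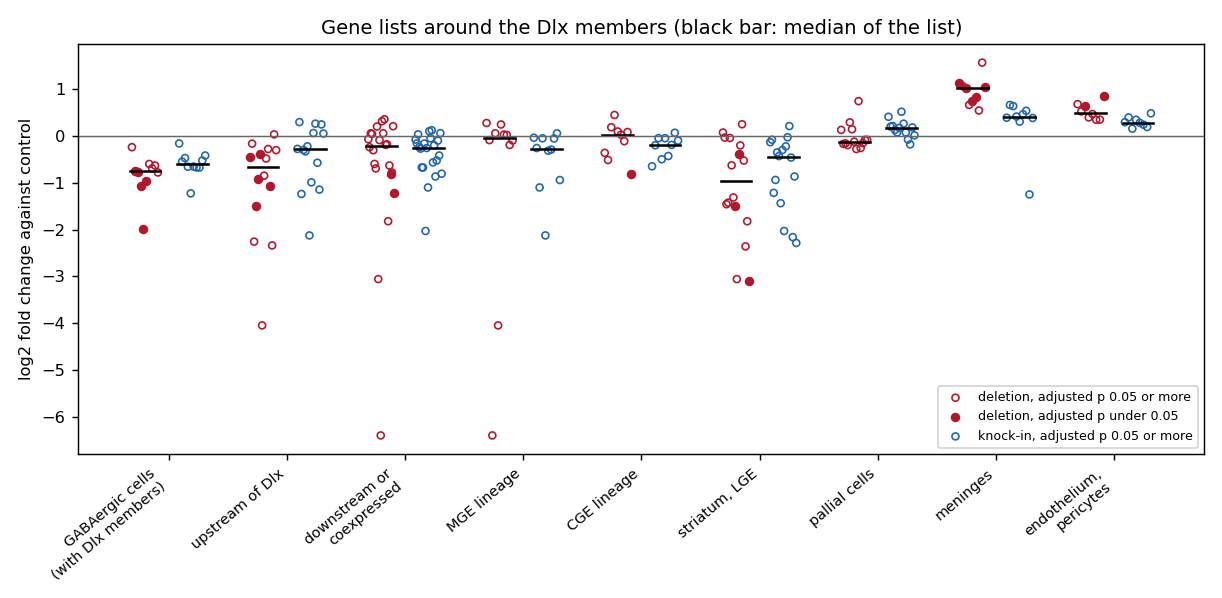
Log2 fold change against control (y axis) of each tested gene of the lists, deletion red and knock-in blue, filled where the adjusted p was under 0.05, with the median of each list as a black bar. GABAergic genes (with the 5 Dlx genes) and upstream genes lie mostly below 0 in the deletion, with medians of -0.76 and -0.66, while meningeal genes lie above it, with a median of 1.01.

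The genes with the pair of statistics most like that of the Dlx genes were Tmtc2, Cdh23, Nova1, Efna5, Zwint and Vax1. Likeness was the Euclidean distance of the deletion and knock-in statistics from the median pair of the 5 Dlx genes (-4.19 and -2.61), over 2 comparisons that share controls and among 13714 named genes with a baseMean of at least 50. The distances of these 6 were 0.14 to 0.40, and those of the Dlx genes themselves reached 0.82. Vax1, a homeobox gene of the ventral forebrain, had -1.33 (SE 0.29) in the deletion and -0.81 (SE 0.29) in the knock-in. Nova1, a neuronal splicing regulator, had -0.76 (SE 0.19) and -0.51 (SE 0.19), while the authors' deposited table has 1.51 for it in the knock-in. Cdh23, a cadherin, had -1.61 (SE 0.38) and -0.92 (SE 0.38), and Efna5, an ephrin ligand, had -0.58 (SE 0.13) and -0.34 (SE 0.13). Tmtc2, the nearest, had -0.43 (SE 0.10) and -0.26 (SE 0.10), and Zwint -0.31 (SE 0.07) and -0.18 (SE 0.07). Likeness of statistics is thus no likeness in the size of the fold change.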

How the data were processed

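Total RNA of embryonic cortex (50 ng) was turned into libraries by mRNA capture, per the labels' protocols. Tools listed in the submitters' processing notes are STAR 2.7.9a, Bowtie2 2.4.4 and cutadapt, with mm9 and mm10 as builds and no roles, and the sources used here do not say how reads were counted. Per the file headers, the deposited tables hold DESeq2 log2 fold changes with their SEs (log2), a Wald score, the raw and adjusted p-values of the authors, and baseMean, a signal that is the mean normalised count over all samples. The deposited columns headed FPKM were checked and not used.

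In the deletion 22 deposited log2 fold changes and 4 p-values, and in the knock-in 25 and 930, disagreed with their own statistic and SE, and an edit made alike to all of these could not be detected. Statistic times SE gave the log2 fold change, and adjusted p came from the normal p of the statistic over genes with a deposited adjusted p. The members, lists and tests were chosen with earlier results of these data known. The rule for named genes took the 5 members, the other Dlx genes, list members past the threshold, the 3 with the highest baseMean per list, neighbours within 500 kb, and the 6 most alike, of which the text gives a selection, and some genes chosen by these rules are not reported here. Other genes in the text, among them Gad1, Slc32a1, Sst, Nkx2-1, Lhx8, Isl1, Six3, Maf, Gbx2 and Eif2s3y, and the 3 promoter motifs, were chosen after values were seen. List genes were matched by symbol, and Bcl11b was not analysed here. Libraries are separate samples by their labels, and nothing says more about litters. The p-values rest on the SEs of the authors' fit, and the spread between libraries could not be checked. The call rule and the column check were tested on simulated data drawn with the authors' SEs, so these SEs were not tested. For the difference test only the number of calls in such data was noted. The simulated comparisons did not share controls, so the error rate of that test is not known. Alternatives were other thresholds, adjustments, filters, scalings and deposited columns. The work was done in R 4.3.3 and in Python 3.11.15 (scipy 1.17.1, pandas 2.3.3, numpy 2.4.6, matplotlib 3.10.9).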

Additional observations from a re-analysis of the deposited data

How the results depend on the processing

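No paired analysis was possible because the deposited columns named after libraries hold no library measurement, and for the same reason no replicate could be left out. In the deletion all 5 Dlx genes were called as reported and 3 of them at a threshold of 0.01, with adjustment over every gene with a p, and with statistics divided by their scale. The same 3 settings moved the called genes of the whole table (185) to 75, 115 and 90 and the called list genes outside the Dlx members (15) to 6, 9 and 6, and a threshold of 0.1 gave 308 genes. In the knock-in the deposited adjusted p called 5 Dlx genes, 930 genes in all and 20 list genes, where the recomputed p called 0, 29 and 0. That column with the deposited log2 fold change, an alternative added after seeing the data, gave the same 3 counts. A threshold of 0.1 gave 58 genes and 1 list gene, a threshold of 0.01 gave 16 genes, and scaled statistics gave 16. Values turned round in the knock-in only: the authors' deposited table has 1.55 for Dlx1 and 0.47 for Dlx2, and the statistic of the authors' shorter list times the SE gives 0.55 for Dlx1. With the deposited log2 fold changes the difference between deletion and knock-in passed for 2 Dlx genes, Dlx1 and Dlx2, where 0 passed as reported. The causes were not tested. Centring on the median of all genes changed no call of a Dlx gene. The depth of each library is unknown, and 3 libraries a group limit the precision.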
